A study of Homo sapiens with 18 samples.

Results

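The 42 genes described here encode subunits of the human proteasome, with some of its assembly chaperones, activators and an inhibitor. They were chosen by name, as the listed PSMA, PSMB, PSMC, PSMD, PSME and PSMF genes in the deposited expression table. All 42 were among the 35616 genes of that table, and all 42 were among the 12005 genes kept by the filter on low values (1 scaled TPM or more in 3 or more libraries). They fall into 7 alpha ring genes (PSMA), 7 constitutive beta ring genes (PSMB1 to PSMB7), 3 immunoproteasome beta genes (PSMB8, PSMB9 and PSMB10), 6 base ATPases (PSMC), 14 other PSMD genes, and 5 genes for activators and an inhibitor (PSME and PSMF1). HBBko cells had higher levels of most core and regulatory particle genes than WT cells after 5 d of differentiation. PSMD10, PSMB10 and PSME4 were lower, of which PSMD10 was called under every scaling of the libraries tried and PSME4 changed sign under one.

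The proteasome degrades proteins that carry a ubiquitin chain. Its 20S core particle is a barrel of outer alpha rings, which gate the entry, and inner beta rings, which hold the proteolytic sites. The 19S regulatory particle binds at the ends of the barrel: its ATPases unfold the substrate, and its other subunits recognise and remove the ubiquitin chain. Activators of the PSME family can take the place of the 19S particle, and interferon-induced beta subunits can replace the constitutive catalytic ones. In red cell precursors the ubiquitin-proteasome system removes excess alpha-globin chains and much of the proteome that the mature cell does not keep.

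RNA was sequenced in HUDEP-2, an established erythroid progenitor line made from human cord blood. The 6 groups of 3 libraries were HBBko cells, in which the beta-globin gene HBB was knocked out, and unedited WT cells, each sampled undifferentiated, at 48 h and at 5 d of differentiation. The labels give neither the number of clones behind the HBBko line nor whether triplicates were independent cultures, so p-values measure only the spread between these libraries, which may be technical. Clone and genotype cannot be told apart with 1 HBBko line, and in bulk RNA fewer cells of a type and less RNA per cell cannot be told apart either.

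The table holds TPM, a level per transcript length, that were scaled further between libraries. Library sums were 783213 to 1508342, and globin transcripts took 1.65% to 52.1% of them. The column names call the lines thal and wen, and thal was read as HBBko from that name. HBB ran from 4598 to 4983 scaled TPM in undifferentiated HBBko libraries, against 12454 to 22376 in WT libraries. At 5 d it ran from 69004 to 72650 in HBBko libraries, against 427628 to 458719 in WT libraries. All 9 erythroid markers were at 1 scaled TPM or more in every group, and of 7 lymphoid, 6 myeloid and 5 stromal and endothelial markers 0 were at that level in all 3 libraries of any group. Of 5 markers of mast cells, basophils and eosinophils, 4 reached 1 in undifferentiated cells, where the 5 summed to 765 to 922 scaled TPM in HBBko and 445 to 614 in WT libraries. At 48 h and 5 d the same 5 summed to 41.7 to 73.2 in HBBko and 42.7 to 61.9 in WT libraries, with CPA3 and HDC below 0.1. Of 4 megakaryocyte markers PF4, PPBP and GP9 were below 0.1 scaled TPM in every group, and ITGA2B reached 1 in all 3 undifferentiated libraries of both lines, where the 4 summed to 1.40 to 1.86 in HBBko and 3.83 to 4.32 in WT libraries. The part of these cell type markers in the results below was not tested.

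The 42 genes together summed, before differentiation, to 4878 ± 36.1 scaled TPM in HBBko and 4535 ± 204 in WT cells (SD, n = 3 each, as for every mean here). At 48 h the sum was 5304 ± 48.2 in HBBko and 4915 ± 51.4 in WT cells, and at 5 d it was 4868 ± 165 in HBBko and 4257 ± 56.2 in WT cells. As a share of all signal except globins, the 42 genes took 0.626% in HBBko and 0.571% in WT cells before differentiation, 0.716% in HBBko and 0.667% in WT cells at 48 h, and 0.688% in HBBko and 0.593% in WT cells at 5 d. The gene with the highest mean level was PSMD8, a lid subunit, in undifferentiated cells of both lines, and the lowest was the immunoproteasome gene PSMB9.

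At 5 d, 28 of the 42 genes were higher in HBBko cells than in WT cells and 3 were lower (limma, adjusted p under 0.05 over all tested genes). Of all 12005 tested genes, 51.3% were called at this stage, 26.5% higher and 24.8% lower. The median log2 fold change, a difference of mean log2(scaled TPM + 1), was 0.22 over the 42 genes and 0.02 over all tested genes. The largest was a 1.57-fold difference of mean scaled TPM. Of the 31 calls, 27 held whichever library was left out, with PSMD8, PSMD11, PSME2 and PSME3 the exceptions.

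The 20S core genes were higher at 5 d in 12 of 14 cases and lower in 0, with 6 of 7 alpha and 6 of 7 beta genes called and a median log2 fold change of 0.33. At an unadjusted p under 0.05, limma likewise put 0 core genes and 0 genes of the 19S particle lower, and so did the authors' deposited table. PSMA3, an alpha ring subunit, had 77.8, 77.3 and 83.1 scaled TPM in the HBBko libraries, against 51.8, 51.1 and 48.7 in the WT libraries. Every HBBko library stood above every WT library, and the log2 fold change was 0.64 (SE 0.05, limma adjusted p = 2.5e-08), a fold of 1.57. PSMB2, a beta subunit without proteolytic activity, had 44.2, 43.8 and 46.5 scaled TPM in HBBko, against 29.8, 32.1 and 31.4 in WT. Its libraries did not overlap either, with a log2 fold change of 0.51 (SE 0.04, limma adjusted p = 5.9e-08). PSMB7 (0.49), PSMA1 (0.37), PSMB5 and PSMB4 (0.35 each) and PSMB3 and PSMA2 (0.33 each) followed on the same log2 scale.

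Of the 3 catalytic subunits of the constitutive core, PSMB7 and PSMB5 were called at 5 d and PSMB6 was not. PSMB7 carries the trypsin-like activity and had 175, 175 and 181 scaled TPM in HBBko, against 126, 125 and 126 in WT, and its log2 fold change was 0.49 (SE 0.06, limma adjusted p = 3.0e-06). PSMB5, the chymotrypsin-like subunit, had 70.2, 63.8 and 69.6 scaled TPM in HBBko, against 52.0, 50.7 and 56.6 in WT, and its log2 fold change was 0.35 (limma adjusted p = 1.3e-05). For both genes the lines were fully separated. PSMB6, the caspase-like subunit, had 152, 146 and 164 scaled TPM in HBBko and 137, 135 and 144 in WT, also without overlap, and its log2 fold change of 0.15 missed the threshold (SE 0.06, limma adjusted p = 0.067). PSMA7 was the other uncalled core gene, at 170, 175 and 183 scaled TPM in HBBko and 174, 182 and 184 in WT, which overlap.

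In the 19S particle, taken as 17 genes without the assembly chaperones PSMD5, PSMD9 and PSMD10, 14 were higher at 5 d and 0 were lower, with a median log2 fold change of 0.26. The lid subunit SEM1 is not among these genes and is read with the associated proteins below. Among the ATPases 5 of 6 were called, with PSMC6 the exception. PSMC4 had 126, 125 and 131 scaled TPM in HBBko, against 97.9, 92.9 and 97.3 in WT, and its log2 fold change was 0.40 (SE 0.04, limma adjusted p = 8.3e-07). PSMC2 had 51.6, 49.6 and 58.1 scaled TPM in HBBko, against 39.6, 38.1 and 40.0 in WT, and its log2 fold change was 0.42 (SE 0.05, limma adjusted p = 4.2e-06). Both ATPase genes separated the lines in every library. PSMC6 was the noisiest ATPase gene, at 34.0, 43.4 and 39.9 scaled TPM in HBBko and 31.8, 34.4 and 27.6 in WT.

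Among the other regulatory particle genes, PSMD3, a lid scaffold subunit, had 137, 134 and 147 scaled TPM in HBBko, against 98.8, 99.9 and 100 in WT, and its log2 fold change was 0.48 (SE 0.05, limma adjusted p = 9.6e-07). PSMD1, a large scaffold subunit of the base, changed by a log2 fold of 0.42 (SE 0.06), and PSMD14, the deubiquitinase that cuts the chain off the substrate, by 0.31. PSMD4, a ubiquitin receptor, was higher by 0.20 on the same log2 scale. PSMD2, the other large base scaffold, did not follow: it had 289, 267 and 303 scaled TPM in HBBko and 289, 283 and 294 in WT, which overlap. PSMD7, the partner of PSMD14 in the lid, was also not called, with a log2 fold change of -0.01.

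The largest decrease at 5 d was in PSMD10, also called gankyrin, a chaperone of base assembly that is not part of the finished particle. It had 9.81, 10.2 and 11.2 scaled TPM in HBBko, against 15.6, 14.3 and 15.9 in WT. The libraries did not overlap, and the log2 fold change was -0.52 (SE 0.06, limma adjusted p = 3.0e-06). The other 2 base chaperones were not called: PSMD9 had a log2 fold change of -0.07 and PSMD5 of 0.20 (limma adjusted p = 0.47 and 0.1).

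PSMB10, the interferon-induced beta subunit that replaces PSMB7, had 17.1, 18.2 and 16.1 scaled TPM in HBBko, against 21.9, 23.5 and 22.9 in WT. It was thus lower in HBBko while PSMB7 was higher, with a log2 fold change of -0.39 (SE 0.08, limma adjusted p = 4.1e-04). When all libraries were rescaled to equal sums, PSMB10 kept its sign and lost its call. The other 2 immunoproteasome genes were low at 5 d: PSMB8 had 0.945, 1.06 and 0.914 scaled TPM in HBBko and 0.894, 0.731 and 0.799 in WT, and PSMB9 had 0.113, 0.356 and 0.149 in HBBko and 0.242, 0.384 and 0.326 in WT. Neither was called (limma adjusted p = 0.26 for PSMB8 and 0.45 for PSMB9).

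The activator genes moved in both directions at 5 d. PSME3, the nuclear activator that works without ubiquitin, had 35.5, 39.6 and 41.5 scaled TPM in HBBko, against 31.2, 33.1 and 34.5 in WT, with no overlap and a log2 fold change of 0.23 (SE 0.08, limma adjusted p = 0.029). PSME2, a partner of PSME1 in a cytosolic ring, was higher by 0.16 on that scale (SE 0.06, limma adjusted p = 0.022), and PSME1 was not called, with 203, 209 and 210 scaled TPM in HBBko and 205, 206 and 210 in WT. PSME4, a large nuclear activator known for histone degradation, had 54.4, 52.1 and 56.5 scaled TPM in HBBko, against 66.5, 62.7 and 71.3 in WT. Its log2 fold change was -0.29 (SE 0.06, limma adjusted p = 0.0011), but it was 0.04 under equal sums, so the direction rests on the scaling. PSMF1, an inhibitor of the core, was not called.

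**Figure D1:**
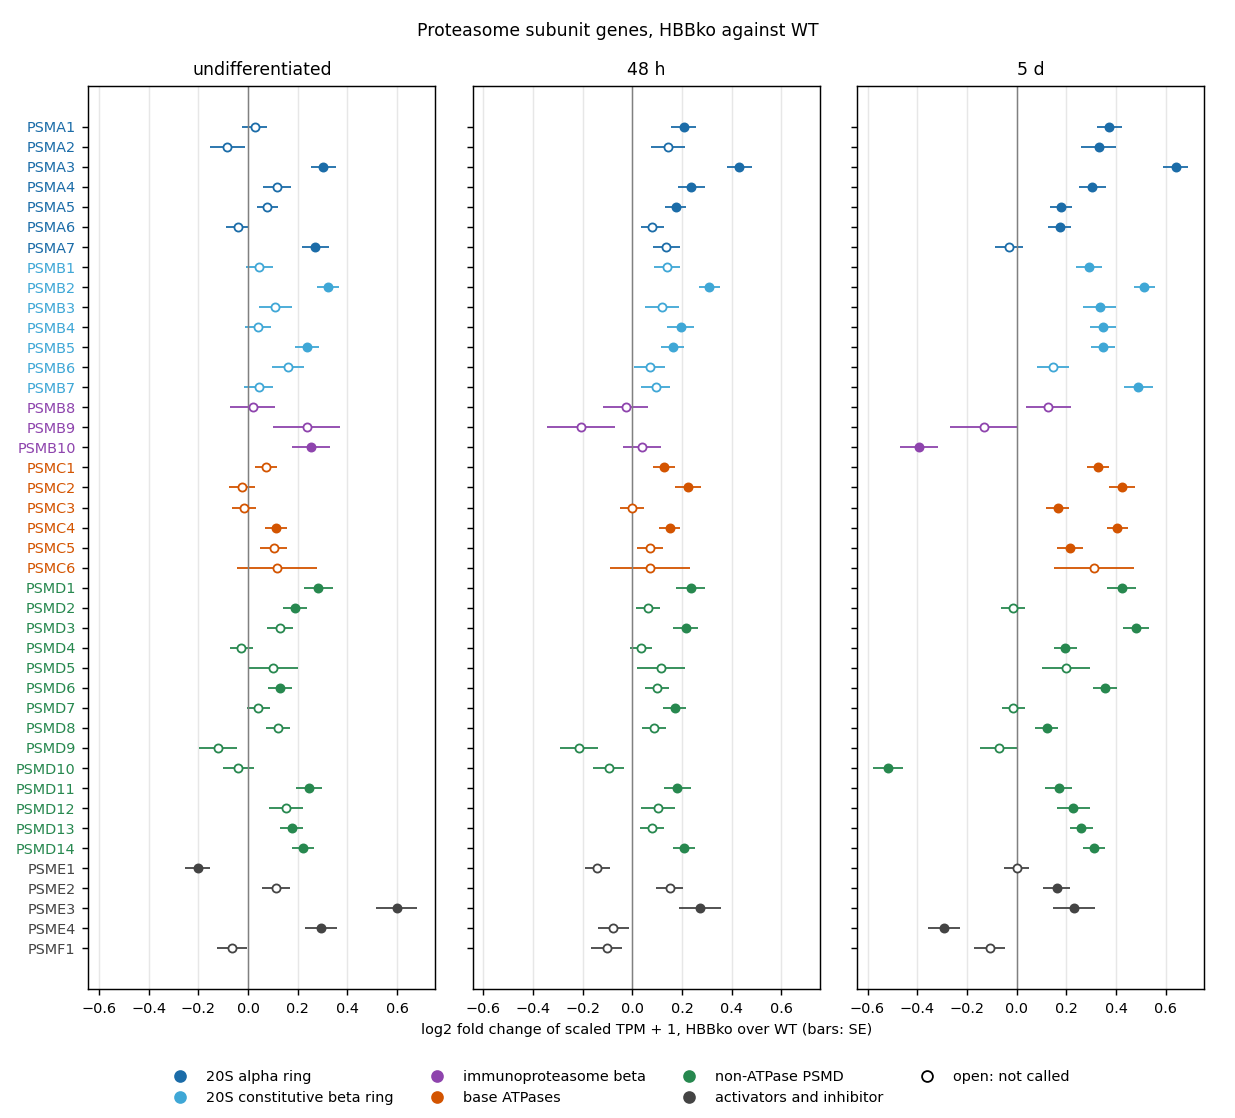
Log2 fold change (HBBko over WT, with SE) of the 42 proteasome genes, 1 panel per stage, coloured by subcomplex; open symbols mark genes that were not called. The undifferentiated panel has 14 genes higher and 1 lower, the 48 h panel 16 and 0, and the 5 d panel 28 and 3, with PSMA3 at 0.64 and PSMD10 at -0.52 at its ends.

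Before differentiation, 14 of the 42 genes were already higher in HBBko cells and 1 was lower, beside 43.3% of all tested genes called, 20.9% higher and 22.3% lower. The median log2 fold change was 0.11 over the 42 genes and -0.01 over all tested genes. The 20S core gave 4 of 14 higher and the 19S particle 7 of 17. The count called was 23 without replicate 3 of the WT libraries, and 13 of the 15 calls held whichever library was left out, with PSMC4 and PSMD6 the exceptions. PSMB2 had 68.9, 70.2 and 68.8 scaled TPM in HBBko, against 57.7, 55.0 and 53.0 in WT, and its log2 fold change was 0.32 (SE 0.04, limma adjusted p = 2.5e-05). PSMA3 had 119, 120 and 126 scaled TPM in HBBko, against 98.6, 104 and 92.9 in WT, and its log2 fold change was 0.30. Both were separated between the lines. PSMB5 (0.24) was called among the constitutive catalytic subunits, and PSMB10 was higher by 0.25 at this stage (limma adjusted p = 0.013), the opposite side of WT from its 5 d value, a call lost in a fit of only the groups compared. PSMB6, PSMB7, PSMB8 and PSMB9 had log2 fold changes of 0.16, 0.04, 0.02 and 0.24 and were not called.

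The activators stood at the ends of the undifferentiated comparison. PSME3 had 156, 152 and 147 scaled TPM in HBBko, against 108, 111 and 83.1 in WT, and its log2 fold change was 0.60, a fold of 1.51 (SE 0.08, limma adjusted p = 3.5e-05). PSME1 had 78.0, 82.0 and 79.9 scaled TPM in HBBko, against 88.1, 88.8 and 100 in WT, and its log2 fold change was -0.20 (SE 0.05, limma adjusted p = 0.0041). PSME3 was thus above, and PSME1 below, WT in every library, and the PSME1 call was lost in a fit of only the groups compared. PSME4 was higher by 0.29 and PSME2, at 0.11, was not called.

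At 48 h, 16 of the 42 genes were higher in HBBko cells and 0 were lower, where 18.7% of all tested genes were called, 9.52% higher and 9.21% lower. The split was 32 higher and 0 lower under equal sums, 28 and 5 with library weights, 23 and 3 in a fit of only the groups compared, and 19 and 2 with the replicate number as a block. Under equal sums the median log2 fold change was 0.26 over the 42 genes and 0.14 over all tested genes. The shares of all tested genes called under these other settings are not reported here. At an unadjusted p under 0.05 in limma 2 genes were lower, PSMD9 and PSME1, and the authors' deposited table calls 3 genes lower. The count called was 9 without replicate 3 of the HBBko libraries and 10 without their replicate 1 or without WT replicate 3, and 8 of the 16 calls held whichever library was left out. The median log2 fold change was 0.12 over the 42 genes and 0.02 over all tested genes. PSMA3 led again, with 121, 124 and 127 scaled TPM in HBBko, against 92.3, 95.4 and 87.9 in WT, and its log2 fold change was 0.43 (SE 0.05, limma adjusted p = 1.8e-05). PSMB2 followed at 0.31, PSME3 at 0.27 (a call lost when any of the 6 libraries was left out), PSMA4 at 0.24, PSMD1 at 0.23, PSMC2 at 0.22 and PSMD3, PSMA1 and PSMD14 at 0.21. Of the 6 catalytic genes only PSMB5 was called, with a log2 fold change of 0.16 (limma adjusted p = 0.026) that lost its call without replicate 1, 2 or 3 of HBBko or replicate 2 or 3 of WT. The log2 fold changes were 0.07 for PSMB6, 0.09 for PSMB7, -0.03 for PSMB8, -0.21 for PSMB9 and 0.04 for PSMB10. PSME1, PSME2 and PSME4 had log2 fold changes of -0.14, 0.15 and -0.08 and were not called.

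The scaling between libraries bears on these calls. Rescaling every library to an equal sum moved the median log2 fold change of all tested genes, HBBko over WT, to 0.14 at 48 h and 0.27 at 5 d. Under 4 other scalings in addition to the deposited one, the call and its direction held throughout for 13 of the 14 higher genes and the 1 lower gene before differentiation. At 48 h they held for 13 of 16, and at 5 d for 25 of 28 higher genes and for PSMD10 of the 3 lower ones. Under equal sums the median at 5 d was 0.55 over the 42 genes, still above that of all tested genes.

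The summed levels show the same ordering without the fit. The 14 constitutive 20S core genes summed to 1867, 1856 and 1964 scaled TPM in HBBko libraries at 5 d, against 1523, 1553 and 1565 in WT libraries. The 17 genes of the 19S particle summed to 2158, 2097 and 2264 in HBBko, against 1868, 1850 and 1900 in WT. For both sums every HBBko library stood above every WT library at 5 d and at 48 h. Before differentiation the 20S sums overlapped, at 2150, 2189 and 2215 in HBBko and 1947, 1985 and 2171 in WT.

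**Figure D2:**
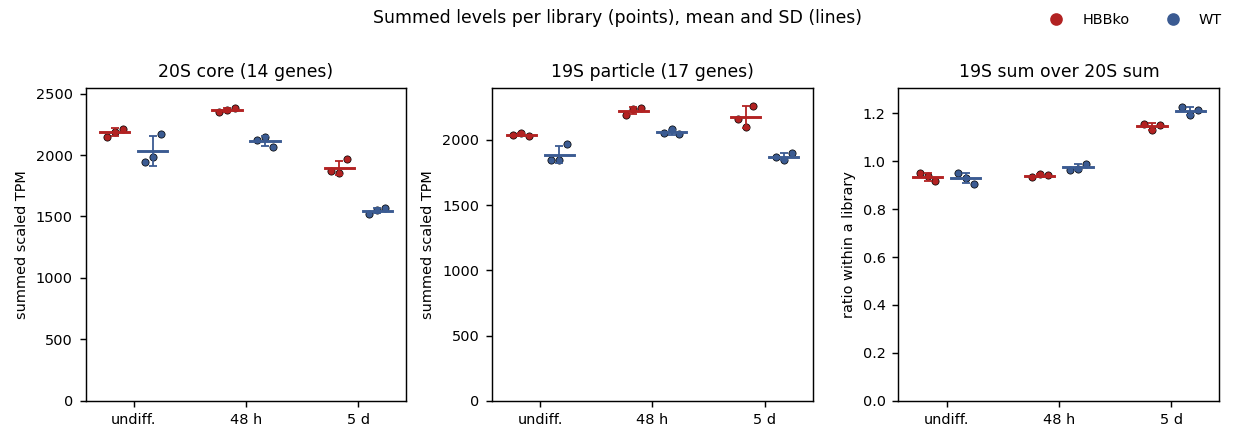
Summed scaled TPM of the 14 constitutive 20S core genes and of the 17 19S genes, and the ratio of the 19S sum to the 20S sum, for each library by line and stage; points are libraries and bars give the mean with its SD. The ratio lies near 0.93 in both lines before differentiation and at 1.15 in HBBko and 1.21 in WT cells at 5 d.

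The difference between the lines itself changed with the stage for a share of the genes. Tested as an interaction in the same fit, the signed HBBko over WT log2 fold change was larger at 5 d than before differentiation for 16 genes and smaller for 6. Of all tested genes 45.0% were called, 23.5% larger and 21.5% smaller. Larger and smaller refer here to the signed value. A gene counted as smaller can thus differ more between the lines at 5 d, as PSMD10 did. PSME1, counted as larger, was called lower in HBBko before differentiation and was not called at 5 d. Core genes made up 8 and 19S genes 7 of the 16, with PSMB7 (0.45), PSMC2 (0.45) and PSMA2 (0.41) among the largest differences of log2 fold changes. The 6 on the other side were PSMB10 (-0.65), PSME4 (-0.59), PSMD10 (-0.48), PSME3 (-0.37), PSMA7 (-0.30) and PSMD2 (-0.20), the last at 0.09 under equal sums. Under all 5 scalings 9 of the 16 and, of the 6, PSMB10 and PSME4 held, while equal sums gave 31 larger and 2 smaller and median-of-ratios scaling 9 and 6. Between 5 d and 48 h the change was larger for 7 and smaller for 3 genes, beside 24.6% of all tested genes called, 11.5% larger and 13.1% smaller, and the split was 25 to 0 under equal sums, 16 to 2 with globins removed, 5 to 4 under median-of-ratios scaling and 18 to 2 under quantile normalization. Between 48 h and before differentiation it was larger for PSMC2 (0.25) and smaller for PSME4 (-0.37), beside 13.2% of all tested genes called, 7.67% larger and 5.51% smaller, and neither call held under all 5 scalings. Without replicate 1 of the undifferentiated WT libraries 7 genes were called for 48 h against undifferentiated cells, and 4 without replicate 2 of that group, and without replicate 1 of the HBBko libraries at 48 h the count between 5 d and 48 h was 6. For 48 h against undifferentiated cells equal sums gave 7 larger and 0 smaller, and globin removal and median-of-ratios scaling 0 larger and 1 smaller each. The shares of all tested genes called as interactions under the other scalings are not reported here.

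Promoters of genes described here are shown because proteasome genes are known targets of NFE2L1, which binds antioxidant response elements, and immunoproteasome and PSME1 genes of interferon-driven factors. RefSeq windows of 300 bases, 250 before and 50 after the transcript start on GRCh38.p14, were found for 37 of the 42 genes, as 45 windows. In the windows below the capitals mark the matches of 1 motif per window on either strand: CCAAT in PSMA3, the antioxidant element core TGACNNNGC in PSMC4 and PSMD12, and the interferon element core (GAAA, any 2 bases, GAAA) in PSMB10 and PSME1. Matches of other searched motifs are left in lower case, such as the antioxidant core in PSME1 and the ETS site in PSMD12. PSMA3 is chr14:58244593-58244892 (plus strand), PSMC4 is chr19:39970915-39971214 (plus), PSMD12 is chr17:67366528-67366827 (minus), PSMB10 is chr16:67936801-67937100 (minus) and PSME1 is chr14:24135944-24136243 (plus).
PSMA3: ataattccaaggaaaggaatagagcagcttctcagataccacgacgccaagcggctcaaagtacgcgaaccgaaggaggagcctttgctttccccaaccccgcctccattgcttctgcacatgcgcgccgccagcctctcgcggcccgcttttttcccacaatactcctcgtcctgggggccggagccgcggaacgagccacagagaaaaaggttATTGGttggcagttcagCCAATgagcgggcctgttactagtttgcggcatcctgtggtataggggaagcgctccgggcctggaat
PSMC4: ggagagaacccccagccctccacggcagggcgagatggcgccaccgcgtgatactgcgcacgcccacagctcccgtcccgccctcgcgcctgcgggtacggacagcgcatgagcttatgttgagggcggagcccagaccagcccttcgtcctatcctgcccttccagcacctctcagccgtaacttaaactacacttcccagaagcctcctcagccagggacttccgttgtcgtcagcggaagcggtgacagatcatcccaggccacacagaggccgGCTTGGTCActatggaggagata
PSMD12: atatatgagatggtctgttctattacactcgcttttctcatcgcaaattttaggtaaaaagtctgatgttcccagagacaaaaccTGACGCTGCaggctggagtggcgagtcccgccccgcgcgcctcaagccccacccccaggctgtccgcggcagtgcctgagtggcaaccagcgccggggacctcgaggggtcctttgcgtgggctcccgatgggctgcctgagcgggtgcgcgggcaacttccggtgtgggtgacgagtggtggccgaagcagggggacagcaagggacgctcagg
PSMB10: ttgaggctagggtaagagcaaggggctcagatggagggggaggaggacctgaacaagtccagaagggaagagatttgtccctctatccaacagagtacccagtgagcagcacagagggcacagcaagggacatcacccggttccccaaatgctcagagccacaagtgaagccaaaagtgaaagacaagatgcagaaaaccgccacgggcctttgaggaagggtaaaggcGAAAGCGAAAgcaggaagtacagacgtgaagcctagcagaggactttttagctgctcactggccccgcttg
PSME1: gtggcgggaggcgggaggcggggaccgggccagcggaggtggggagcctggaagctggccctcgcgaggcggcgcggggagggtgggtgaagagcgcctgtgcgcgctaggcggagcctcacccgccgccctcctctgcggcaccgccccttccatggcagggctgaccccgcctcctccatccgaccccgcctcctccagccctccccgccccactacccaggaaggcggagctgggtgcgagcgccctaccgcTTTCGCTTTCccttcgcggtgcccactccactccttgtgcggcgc

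The antioxidant element core was in 28.9% of the windows of proteasome genes and in 13.3% of all 35116 windows of the table. The interferon element core was in 13.3% of the proteasome windows and 3.57% of all windows, and its genes were PSMA4, PSMB4, PSMB8, PSMB10, PSME1 and PSME2. CCAAT was in 40% against 34.6%, and the ETS letters CCGGAAG in 28.9% against 10.3%. The ATF4 composite core TGATGNAA was in 1 proteasome window (PSMF1), or 2.22% against 3.62%, the heat shock core GAANNTTC in 0% against 6.77%, and the GATA letters AGATAA in 2.22% (PSMC6) against 10.3%. Motifs were searched on both strands and may overlap one another. Among genes with the interferon core at 5 d, PSMB10 was lower, PSMA4, PSMB4 and PSME2 were higher, and PSME1 and PSMB8 were not called.

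Differentiation was followed within each line. At 5 d against undifferentiated cells, 16 of the 42 genes rose and 19 fell in HBBko cells, beside 85.7% of all tested genes called, 31.4% up and 54.4% down. In WT cells 10 rose and 25 fell, beside 85.8% of all tested genes called, 30.0% up and 55.8% down. Both splits count PSMB9 among the falls, a gene that passed the filter on low values only through the undifferentiated libraries. These splits depended on the scaling: equal sums gave 3 up and 33 down in HBBko and 2 and 38 in WT, globin removal 19 and 16 in HBBko and 14 and 20 in WT, and median-of-ratios scaling 23 and 11 in HBBko and 21 and 15 in WT. For these other scalings the shares of all tested genes called are not reported here, so the counts are not read as particular to the 42 genes. The scalings also moved the median of all tested genes, which was -0.33 in HBBko and -0.36 in WT cells as deposited, -0.80 in HBBko and -1.06 in WT under equal sums, -0.21 and -0.25 with globins removed, -0.10 and -0.09 under median-of-ratios scaling, and 0.05 and 0.02 under quantile normalization.

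Against that median the particles parted from each other. The 20S core had a median log2 fold change of -0.31 in HBBko, with 2 genes up and 9 down of 14, and of -0.49 in WT, with 1 up and 12 down. The 19S genes had medians of 0.13 in HBBko, with 10 up and 4 down of 17, and -0.01 in WT, with 5 up and 6 down. Under equal sums, where the median of all tested genes also lay lower, no 19S gene rose in either line, and 13 fell in HBBko and 16 in WT. The 19S medians of -0.42 and -0.85 then still lay above the 20S medians of -0.86 and -1.34.

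The ratio of the 19S sum to the 20S sum does not change under a scaling that multiplies each library by 1 factor. Quantile normalization is not of that kind, and the ratio was not computed under it. In HBBko cells it was 0.935 ± 0.0165 before differentiation, 0.940 ± 0.00678 at 48 h and 1.15 ± 0.0144 at 5 d. In WT cells it was 0.929 ± 0.0221, 0.975 ± 0.0126 and 1.21 ± 0.0178 at these times. The 5 d libraries of each line lay above all of its earlier ones. No test of this ratio was run.

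Single genes within each particle moved apart during differentiation. Of the core genes PSMB4 rose in both lines, by 0.50 on the log2 scale in HBBko and 0.19 in WT cells at 5 d. Under equal sums the PSMB4 log2 fold changes were -0.055 in HBBko and -0.66 in WT cells. PSMA1 rose in HBBko cells only, by 0.22, and was at -0.34 in these cells under equal sums. PSMA3 (-0.61 in HBBko and -0.95 in WT), PSMB2 (-0.62 in HBBko and -0.81 in WT) and PSMB5 (-0.67 in HBBko and -0.78 in WT) fell in both lines under all 5 scalings. PSMB7 had a log2 fold change of -0.01 in HBBko cells, which was not called, and fell by 0.45 in WT cells. Of the 19S genes PSMD2 rose by 0.55 in HBBko and 0.75 in WT cells, and PSMD12, a lid scaffold subunit, by 0.42 in HBBko and 0.34 in WT cells. PSMC2 rose by 0.42 in HBBko cells and had a log2 fold change of -0.03 in WT cells. None of the 3 rises in PSMD2, PSMD12 and PSMC2 held under equal sums.

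PSMD12 had its highest level at 48 h. In HBBko libraries it was at 51.2, 53.5 and 51.3 scaled TPM before differentiation, 97.2, 96.4 and 92.4 at 48 h and 72.4, 66.0 and 71.2 at 5 d. In WT libraries it was at 42.3, 53.8 and 44.7, then 90.7, 90.9 and 84.5, then 61.2, 57.7 and 59.4. The 48 h change was 0.86 in HBBko and 0.91 in WT cells on the log2 scale and held under all 5 scalings, as did that of PSMD6, another lid subunit (0.48 in HBBko and 0.51 in WT cells).

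The base chaperones split. PSMD9 had 99.9, 97.9 and 102 scaled TPM in undifferentiated HBBko libraries, 105, 106 and 108 at 48 h and 188, 178 and 199 at 5 d, a log2 fold change at 5 d of 0.91 (SE 0.08, limma adjusted p = 3.8e-09). Its change in WT cells was 0.85, and only that in HBBko cells was called under all 5 scalings. PSMD10 fell, with log2 fold changes of -0.99 in HBBko and -0.51 in WT cells at 5 d, of which that in HBBko cells was called under all 5 scalings.

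**Figure D3:**
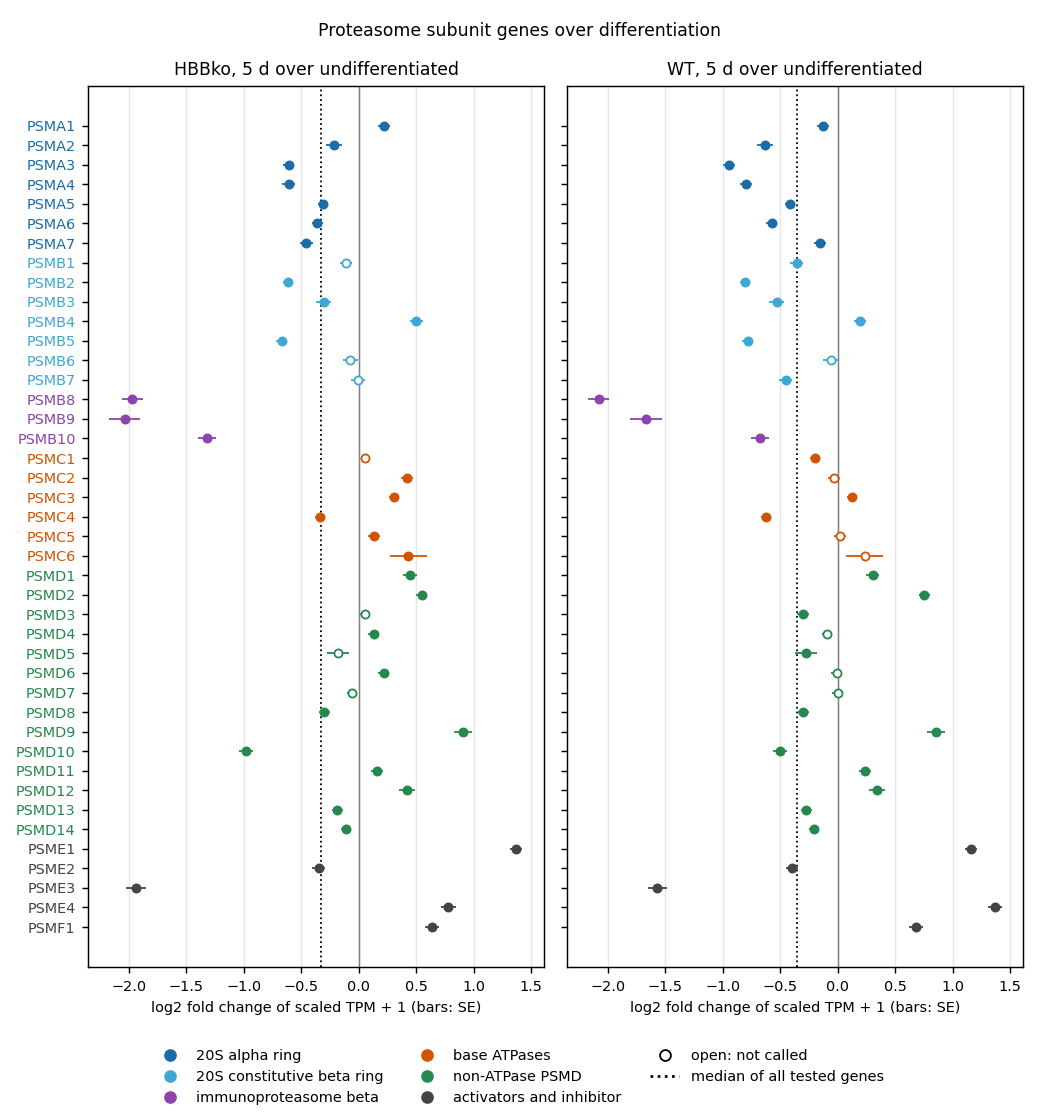
Log2 fold change of the 42 proteasome genes at 5 d over undifferentiated cells, with SE, in HBBko (left) and WT cells (right), coloured by subcomplex; the dotted line is the median of all tested genes, at -0.33 in HBBko and -0.36 in WT cells. PSME1, PSMD9 and PSME4 lie at the upper end, and PSMB8, PSMB9 and PSME3 at the lower end, in both lines. PSMB9 passed the filter on low values only through the undifferentiated libraries.

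At 48 h, 18 of the 42 genes had risen and 9 had fallen in HBBko cells, beside 65.2% of all tested genes called, 25.1% up and 40.1% down. In WT cells 16 had risen and 5 had fallen, beside 64.9% of all tested genes called, 23.5% up and 41.4% down. Both splits again count PSMB9, which passed the filter only through the undifferentiated libraries, among the falls. Equal sums gave 11 up and 11 down in HBBko and 6 and 22 in WT, globin removal 24 and 5 in HBBko and 25 and 4 in WT, median-of-ratios scaling 26 and 5 in HBBko and 27 and 4 in WT, and quantile normalization 26 and 6 in HBBko. Equal sums moved the median of all tested genes to -0.18 in HBBko and -0.28 in WT cells, which lay at -0.09 and -0.10 as deposited. For the other scalings at 48 h, too, the shares of all tested genes called are not reported here.

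In the deposited scaling PSME1 rose, and PSME3 fell, by more at 5 d than any constitutive core gene changed in either line. This ranking was not compared under the other scalings, which move the core genes too. PSME1 had 78.0, 82.0 and 79.9 scaled TPM in undifferentiated HBBko libraries, 136, 137 and 140 at 48 h and 203, 209 and 210 at 5 d, a log2 fold change at 5 d of 1.36 (SE 0.05, limma adjusted p = 4.4e-14). In WT libraries it had 88.1, 88.8 and 100, then 145, 148 and 162, then 205, 206 and 210, a log2 fold change of 1.16 (limma adjusted p = 4.0e-13). No time overlapped another in either line. PSME2 fell, with log2 fold changes at 5 d of -0.35 in HBBko and -0.40 in WT cells whose calls did not hold under every scaling, so the ratio of PSME1 to PSME2 was 1.80, 4.22 and 5.996 in HBBko cells and 2.25, 5.20 and 6.72 in WT cells over the 3 times.

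PSME3 and PSME4, both nuclear, went in opposite directions. PSME3 had 156, 152 and 147 scaled TPM in undifferentiated HBBko libraries, 99.1, 102 and 102 at 48 h and 35.5, 39.6 and 41.5 at 5 d, and it had 108, 111 and 83.1, then 86.1, 85.3 and 79.0, then 31.2, 33.1 and 34.5 in WT libraries. Its log2 fold change at 5 d was -1.94 in HBBko and -1.57 in WT cells (limma adjusted p = 3.2e-13 and 6.0e-12). PSME4 had 31.4, 30.8 and 31.5 scaled TPM, then 38.5, 37.2 and 35.4, then 54.4, 52.1 and 56.5 in HBBko libraries, and 23.6, 28.3 and 24.2, then 38.0, 38.5 and 40.7, then 66.5, 62.7 and 71.3 in WT libraries. It rose by 0.78 in HBBko and 1.37 in WT cells at 5 d (limma adjusted p = 2.8e-09 and 1.0e-12). The ratio of PSME4 to PSME3 was 0.207, 0.367 and 1.40 in HBBko cells and 0.256, 0.469 and 2.03 in WT cells, so PSME4 exceeded PSME3 at 5 d in both lines. The changes of PSME1, PSME3 and PSME4 at 5 d held under all 5 scalings in both lines.

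The immunoproteasome genes PSMB8 and PSMB10 fell by 5 d in both lines and under all 5 scalings. PSMB9 was also called lower, but it passed the filter on low values only through the undifferentiated libraries, so its fall is given as a description. PSMB8, which replaces PSMB5, had 6.61, 6.83 and 6.77 scaled TPM in undifferentiated HBBko libraries, 1.98, 1.75 and 2.16 at 48 h and 0.945, 1.06 and 0.914 at 5 d. In WT libraries it had 6.72, 6.95 and 6.25, then 2.34, 2.17 and 1.59, then 0.894, 0.731 and 0.799. The log2 fold changes at 5 d were -1.97 in HBBko and -2.08 in WT cells (SE 0.09 each, limma adjusted p = 7.1e-13 and 3.5e-13). PSMB9, which replaces PSMB6, was at 4.15, 3.52 and 4.14 scaled TPM in undifferentiated HBBko libraries and at 0.356 or less at 5 d, with a log2 fold change of -2.04 in HBBko and -1.67 in WT cells. The log2 scale with 1 added understates the change of such low genes. PSMB8 and PSMB9 overlap on opposite strands of chromosome 6 (GENCODE v29 on GRCh38: PSMB8 at 32840717 to 32844703, minus strand, and PSMB9 at 32844136 to 32859585, plus strand), and the labels do not say whether strand was used, so reads of one may count for the other.

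PSMB10 was the most abundant of the 3 and changed later. It had 44.7, 45.8 and 42.6 scaled TPM in undifferentiated HBBko libraries, 44.0, 44.5 and 43.8 at 48 h and 17.1, 18.2 and 16.1 at 5 d. In WT libraries it had 40.4, 31.1 and 40.2, then 43.8, 42.9 and 41.9, then 21.9, 23.5 and 22.9. The log2 fold change at 5 d was -1.32 in HBBko and -0.68 in WT cells (limma adjusted p = 1.9e-11 and 2.1e-07). At 48 h it was not called in HBBko cells and was higher by 0.21 in WT cells, a call that did not hold under all scalings.

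**Figure D4:**
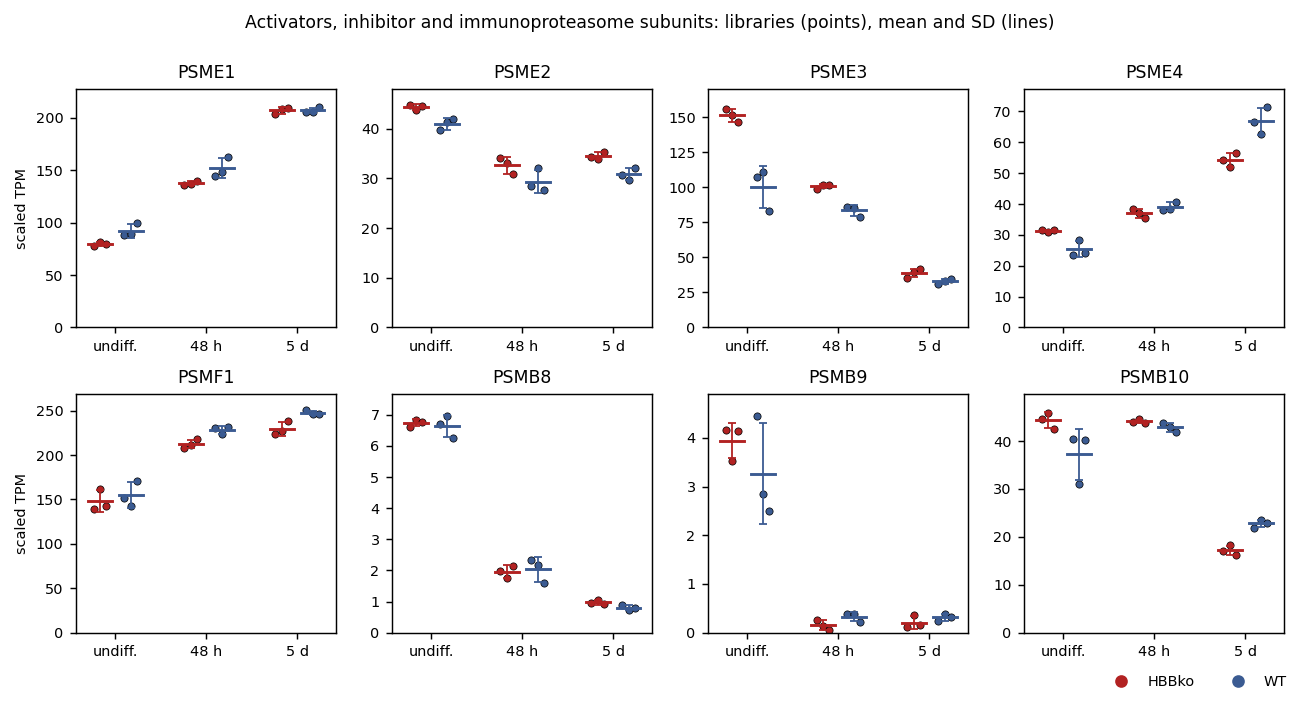
Scaled TPM of PSME1 to PSME4, PSMF1 and PSMB8 to PSMB10 in each library over the 3 times, HBBko and WT cells side by side; points are libraries. PSME1 ends at 203 to 210 in both lines, PSME3 starts at 147 to 156 in HBBko and 83.1 to 111 in WT cells, and PSMB8 ends near 1 in both.

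Transcript levels of the interferon-induced catalytic subunits, relative to the constitutive ones they replace, were compared between the lines. They were taken as log2 ratios within each library, averaged over the 3 stages. Replacement of subunits in the particle itself was not measured. The log2 ratio differed, HBBko minus WT, by -0.17 for PSMB8 to PSMB5, by -0.73 for PSMB9 to PSMB6 and by -0.25 for PSMB10 to PSMB7. None passed an exact two-sided permutation test of the line labels within stages over 3 ratios (p = 0.0525, 0.053 and 0.081, and 0.0795, 0.0795 and 0.081 after Benjamini-Hochberg adjustment). The first passed without replicate 2 of HBBko at 5 d or replicate 3 of WT at 48 h, and the second without replicate 2 of HBBko at 5 d (adjusted p = 0.028 each, exact permutation). The first also passed with a pseudocount of 1, where it was -0.21 (exact permutation, adjusted p = 0.0075). The PSMB10 to PSMB7 difference was 0.22 before differentiation, -0.05 at 48 h and -0.90 at 5 d, and the PSMB9 to PSMB6 difference 0.15, -1.42 and -0.92, so the stages of both had different signs. The later PSMB9 ratios rest on levels of 0.051 to 0.387 scaled TPM. At 5 d PSMB10 stood at 0.0970 of PSMB7 in HBBko and at 0.181 in WT cells.

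Genes around the proteasome were read from lists of its assembly, transcription and partner factors. Of 8 transcription factors and activators of proteasome genes, 6 were lower and 0 higher in HBBko than in WT cells at 5 d. Of all tested genes 51.3% were called at this stage, 24.8% lower. The median log2 fold change of the 8 was -0.53, and under equal sums 4 of them were lower and 2 higher. Under equal sums the median of all tested genes was 0.27, and the share of them called is not reported here. At an unadjusted p under 0.05 in limma 1 was higher, NFE2L3, with a log2 fold change of 0.45 and an adjusted p of 0.074. MAFF had the largest decrease of the list, with a log2 fold change of -1.14 as deposited and -0.82 under equal sums. Its level was low, with a mean of 3.02 scaled TPM in HBBko cells at 5 d. NFE2L1, the factor that raises proteasome genes when degradation is limiting, had 54.5, 52.2 and 47.4 scaled TPM in HBBko, against 83.8, 79.6 and 82.1 in WT, and its log2 fold change was -0.66. NFE2L2, the regulator of the oxidative response, had 77.2, 76.3 and 84.6 scaled TPM in HBBko, against 144, 124 and 140 in WT, and its log2 fold change was -0.77. Both genes were below WT in every HBBko library at 5 d. DDI2, the protease that activates NFE2L1, had 62.1, 63.2 and 58.1 scaled TPM in HBBko and 83.1, 81.6 and 75.4 in WT, and was lower by a log2 fold change of -0.38. This 5 d value is as deposited, and that of DDI2 under equal sums is not reported here. Under equal sums NFE2L1 was at -0.33 and NFE2L2 at -0.44, so the direction of the DDI2 change may rest on the scaling. At 48 h the DDI2 change was -0.31 as deposited and -0.18 under equal sums, where it lost its call.

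Partner genes gave mixed counts at 5 d, in lists of which the share called as deposited can be read against the 51.3% of all tested genes called. Under equal sums that share is not reported here, and the median log2 fold change of all tested genes was 0.27. A majority of higher genes under equal sums therefore does not set a list apart. Of 8 assembly chaperones 3 were higher (AKIRIN2 0.26, PSMG4 0.23, POMP 0.18) and 3 lower (PSMG3 -0.62, ECPAS -0.26, PSMG1 -0.21), the last 2 turning positive under equal sums, where 5 were higher and 1 lower. Of 11 associated proteins 4 were higher and 4 lower, led by SEM1 at 0.74 and ZFAND5 at -0.64, and under equal sums 8 were higher and 1 lower. SEM1, the smallest lid subunit, had 106, 105 and 111 scaled TPM in HBBko, against 62.6, 69.6 and 59.7 in WT. Of 9 p97 and shuttle genes 1 was higher (VCP, the p97 unfoldase, 0.26) and 4 were lower, which became 5 higher and 1 lower under equal sums. Of 12 interferon and antigen-processing genes 2 were higher (TAP2 0.54, TAPBP 0.37) and 4 lower, with IRF1 at -0.87 and NLRC5 at -0.72, and under equal sums 4 were higher and 2 lower. The shares called in the p97 and interferon lists, 5 of 9 and 6 of 12, were near that of all tested genes. PSMG4 and TAP2 lost their calls without some single libraries, as PSMG4 did without replicate 1 or 2 of HBBko or 3 of WT, and TAP2 without replicate 2 or 3 of HBBko or 1 or 3 of WT. The 8 CCT chaperonin genes, a protein complex of another kind set beside the proteasome for comparison, were all higher at 5 d in HBBko cells, with a median log2 fold change of 0.47. The median of the 42 proteasome genes was 0.22. At 48 h all 8 CCT genes were higher too, with a median of 0.24 against 0.12 for the 42 genes. Before differentiation 6 of 8 were higher, with a median of 0.20 against 0.11. Higher levels in HBBko cells were thus not particular to the proteasome genes.

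**Figure D5:**
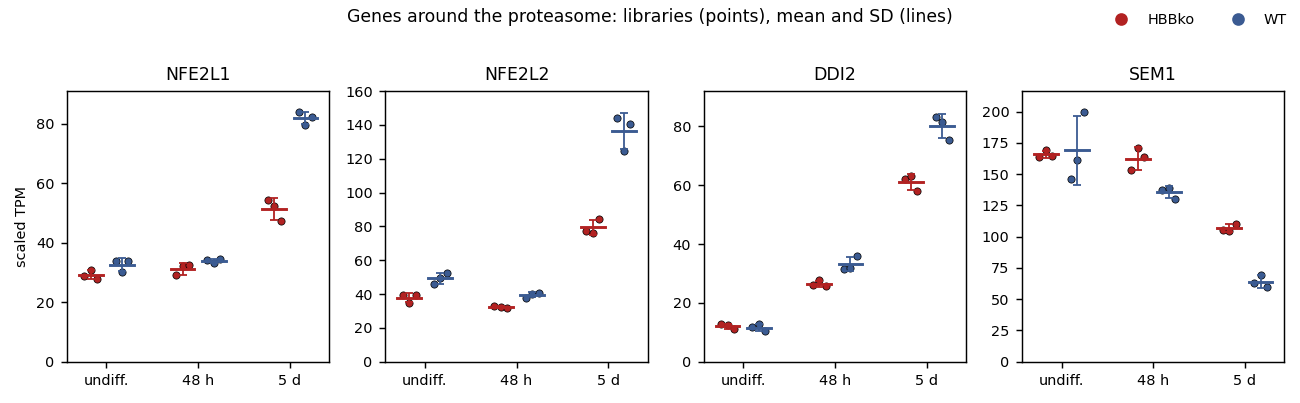
Scaled TPM of NFE2L1, NFE2L2, DDI2 and SEM1 in each library over the 3 times, HBBko and WT cells side by side; points are libraries. In the deposited scaling, NFE2L1, NFE2L2 and DDI2 at 5 d lie lower in every HBBko library than in any WT library, and SEM1 lies higher.

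In the authors' deposited tables, 9 of 42 proteasome genes passed a q value of 0.05 as higher in HBBko and 0 as lower before differentiation, 23 and 3 of 41 at 48 h, and 28 and 4 of 41 at 5 d. Over all genes with a q value the authors' deposited tables called 25.0%, 29.3% and 43.3% at these stages. The decreases at 48 h in the authors' deposited table were PSMD9 (-0.23), PSME1 (-0.15) and PSMF1 (-0.12). The calls of that table and of the fit used here were the same for 9, 16 and 30 genes at the 3 stages. The table also lists 32 pseudogenes of 12 of the genes, of which PSMC1P1 and PSMC1P5 reached 1 scaled TPM or more. PSMC1P1 reached 8.76 scaled TPM, or 6.68% of PSMC1, and how reads were split between these copies is not given in the sources used here. PSMA8 and PSMB11, the core subunits of testis and thymus, reached 0.0204 and 0.015 scaled TPM at most and were not tested.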

How the data were processed

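RNA of 18 HUDEP-2 libraries was sequenced, 3 per group. Per the labels' protocols, an RNeasy kit gave the RNA and a TruSeq v2 kit the libraries. Per the submitters' processing notes, hg38, kallisto and sleuth were used; versions and annotation are not given in the sources used here. The authors deposited signal per gene symbol (TPM scaled again between libraries, called scaled TPM). They also deposited, per stage, a log2 fold change between the lines, p-values and q-values per gene, and variance terms of the sleuth model (score columns per the file headers, not used here). Read counts were not used, so depth is unknown and precision rests on the spread between libraries.

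Values were taken as log2(scaled TPM + 1). Genes at 1 or more in at least 3 libraries (12005 of 35616) were fitted with limma 3.58.1 in R 4.3.3 (lmFit, eBayes with trend), with 1 mean for each group over all 18 libraries and 12 residual degrees of freedom. Tests were two-sided, with Benjamini-Hochberg adjustment over all tested genes, and a gene was called at an adjusted p under 0.05. There were 10 comparisons. The fit was planned for plain TPM and kept unchanged. It was tested on simulated data with 200 changed genes. Ratios were tested by exact permutation within stages (8000 permutations, smallest p 0.00025). Tables and figures used Python 3.11.15, pandas 2.3.3, numpy 2.4.6 and matplotlib 3.10.9.

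Replicate numbers are shared between the lines. Same-numbered libraries deviated together before differentiation (correlations 0.12 to 0.17) and at 5 d (0.13 to 0.18) and not at 48 h (-0.03 to 0.02), a hint from the data, since the labels do not say what a number marks. Alternatives were other pseudocounts, filters, scalings, library weights, a fit of only the groups compared, replicate blocks, and leaving out each library. The members and lists were chosen with earlier results of these data known. Named genes were mainly the called members with the largest changes in each direction (up to 10), and every catalytic and PSME gene in the comparisons between the lines. Of the partner lists they were called genes with large changes at 5 d (up to 3 each way), and DDI2 in addition. Others are named as the counts or exceptions they belong to. Some genes of the partner lists are not reported here.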

Additional observations from a re-analysis of the deposited data

Results flagged for a closer look

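The HBBko over WT change differed between stages, by the interaction term of the same limma fit, for the genes listed here. Each value is a difference of log2 fold changes, later stage minus earlier. Larger and smaller refer to the signed log2 fold change, so a smaller value can be a stronger decrease in HBBko. Between 5 d and undifferentiated cells the change was larger for the core genes PSMA1 (0.35), PSMA2 (0.41), PSMA3 (0.34), PSMA6 (0.21), PSMB1 (0.24), PSMB2 (0.19), PSMB4 (0.31) and PSMB7 (0.45). It was larger for the ATPases PSMC1 (0.25), PSMC2 (0.45), PSMC3 (0.18) and PSMC4 (0.29), for PSMD3 (0.35), PSMD4 (0.22) and PSMD6 (0.23), and for the activator PSME1 (0.20). It was smaller for PSMA7 (-0.30), PSMB10 (-0.65), PSMD2 (-0.20), PSMD10 (-0.48), PSME3 (-0.37) and PSME4 (-0.59).

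Between 5 d and 48 h it was larger for PSMA3 (0.21), PSMB2 (0.20), PSMB7 (0.39), PSMC1 (0.20), PSMC4 (0.25), PSMD3 (0.27) and PSMD6 (0.26), and smaller for PSMB10 (-0.43), PSMD7 (-0.18) and PSMD10 (-0.42). Between 48 h and undifferentiated cells it was larger for PSMC2 (0.25) and smaller for PSME4 (-0.37). PSMD2 turned positive between 5 d and undifferentiated cells, and PSMD7 between 5 d and 48 h, when libraries were rescaled to equal sums.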

How the results depend on the processing

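The counts called, HBBko against WT, were 9 (9 higher, 0 lower) before differentiation in a fit of only the groups compared, and at 48 h 32 under equal sums, 33 (28 higher, 5 lower) with library weights and 26 (23 and 3) in a fit of only the groups compared. The interaction count for 48 h minus undifferentiated was 7 under equal sums, 1 with globins removed and 1 under median-of-ratios scaling. For 5 d minus 48 h it was 25 under equal sums, 18 with globins removed, 20 under quantile normalization, 24 with library weights and 22 with only the groups compared. The shares of all tested genes called under these settings are not reported here. The PSMB8 to PSMB5 log2 ratio was -0.21 with a pseudocount of 1 (exact permutation, adjusted p = 0.0075). Leaving out each library in turn gave 13 to 23, 9 to 13 and 27 to 30 genes, HBBko against WT, at the 3 stages. It gave 22 to 24 and 32 to 34 for HBBko at 48 h and 5 d, 17 to 27 and 33 to 37 for WT, 1 to 7, 19 to 25 and 6 to 11 for the interactions (48 h minus undifferentiated, 5 d minus undifferentiated, 5 d minus 48 h), and ratios of -0.22 to -0.13 (PSMB8 to PSMB5), -0.92 to -0.51 (PSMB9 to PSMB6) and -0.27 to -0.21 (PSMB10 to PSMB7). With the replicate number within each stage as a block (added after seeing the data) the counts were 18, 21 and 32; PSMD6 before differentiation and PSMD8 at 5 d lost their calls.

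The following log2 fold changes reversed. Under equal sums, HBBko against WT at 5 d gave PSME4 0.039, ECPAS 0.065, PSMG1 0.12, FBXO7 0.019, ZFAND2A 0.12 and UBQLN4 0.081. HBBko at 5 d against undifferentiated gave PSMA1 -0.34, PSMB4 -0.055, PSMC2 -0.13, PSMC3 -0.25, PSMC5 -0.42, PSMC6 -0.11, PSMD1 -0.11, PSMD2 -0.0079, PSMD4 -0.43, PSMD6 -0.34, PSMD11 -0.40 and PSMD12 -0.13 under equal sums, PSMA2 0.038, PSMB6 0.18, PSMB7 0.25, PSMD13 0.069 and PSMD14 0.14 under median-of-ratios scaling, PSMB7 0.13 and PSMD14 0.022 with globins removed and PSMD14 0.023 under quantile normalization. WT at 48 h gave PSMA5 -0.065, PSMB1 -0.059, PSMB7 -0.12, PSMC5 -0.062 and PSMD14 -0.084 under equal sums. WT at 5 d gave PSMB4 -0.66, PSMC3 -0.72, PSMD1 -0.54, PSMD2 -0.097, PSMD11 -0.61, PSMD12 -0.50 and PSMF1 -0.17 under equal sums, PSMA1 0.19, PSMA7 0.17, PSMB6 0.26, PSMC1 0.12, PSMD3 0.019, PSMD5 0.031, PSMD8 0.022, PSMD13 0.049 and PSMD14 0.11 under median-of-ratios scaling, PSMA1 0.012 with globins removed and PSMD5 0.12 under quantile normalization. The interactions under equal sums were PSMB6 0.28 and PSMD2 0.090 (5 d minus undifferentiated) and PSMD7 0.010 (5 d minus 48 h). The cause was not tested.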
